A study of Mus musculus with 28 samples.

Results

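The enzymes that write and erase cytosine methylation in DNA were followed in mouse liver as a set of 8 genes: Dnmt1, Uhrf1, Dnmt3a, Dnmt3b, Tet1, Tet2, Tet3 and Tdg. They were chosen by name, and their probes were those whose RefSeq accession belongs to 1 of these genes. The array carried 15 such probes for 7 of the 8 genes, out of 55681 probes for 37208 genes and transcripts. Dnmt1 and Dnmt3a had 1 probe each, Uhrf1 and Tet2 had 2, and Dnmt3b, Tet3 and Tdg had 3. No probe of the array was matched to Tet1, so Tet1 was not analysed here.

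DNA methylation at CpG sites is copied at each round of replication by Dnmt1, which Uhrf1 brings to the newly made, hemimethylated DNA. Dnmt3a and Dnmt3b place methyl groups on sites that had none. The Tet enzymes oxidise 5-methylcytosine, and the glycosylase Tdg cuts out the further oxidised bases so that base excision repair restores an unmodified cytosine. The liver is a mostly resting tissue, and both Dnmt1 and Uhrf1 are best known for high expression in dividing cells, which is why each was set beside Mki67, the gene of the Ki-67 antigen found in cycling cells.

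The livers came from 28 males, each hybridised to its own 1-colour array, in 3 feeding experiments with phenobarbital (PB), a barbiturate that activates the nuclear receptor CAR and induces drug-metabolising enzymes. The first used outbred CD-1 animals, 4 without PB and 4 fed 1500 ppm over 7 days. The second used hCAR/hPXR animals, which carry the human forms of CAR and of the related receptor PXR, 7 without PB and 7 fed 1000 ppm, also over 7 days. The third used C3H/HeNCrlCrlj animals (C3H), 3 without PB and 3 fed 500 ppm over 27 weeks, all of which, controls included, had first had diethylnitrosamine injected once into the peritoneum at 90 mg/kg. Diethylnitrosamine is a carcinogen of the liver. The labels call the C3H tissue liver and do not say whether tumours were sampled.

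A level below is the log2 processed signal of a probe minus the 75th percentile of its array, so that 0 is the brightness of the upper quartile. The hepatocyte marker genes on the array (5 of 6 listed, among them Alb and Apoa1) passed the filter on dim probes in each strain. By the file headers the arrays lay on 5 slides: CD-1 controls and CD-1 PB animals each had a slide of their own, so slide and PB cannot be told apart there, and all C3H arrays shared 1 slide. In hCAR/hPXR mice, 1 slide held all controls and PB animal 1, and another held PB animals 2 to 7, so a fit with the slide as a block rests on PB animal 1. CD-1 arrays were scanned at 5 µm and the others at 3 µm, and the median coefficient of variation between copies of a probe within an array, as the headers give it, was 13.2% to 14.3% in CD-1 controls against 21.1% to 25.3% in CD-1 PB animals. CD-1 control 1 stood apart with 46.1% of probes well above background, against 61.4% to 70.5% in the other CD-1 animals. Over all genes tested, the median log2 difference was -0.04 (CD-1), 0.13 (hCAR/hPXR) and -0.05 (C3H). Of the genes called in CD-1 mice, 23.2% were higher with PB, a share that was 33.8% after quantile normalization and 39.4% after normexp background correction with quantile normalization.

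Of the 5 methylation genes that could be tested in CD-1 mice, 1 passed the threshold (Dnmt1, lower), where 7.99% of all tested genes passed. The hCAR/hPXR animals gave 4 of 7, all higher (Uhrf1, Dnmt1, Tet2 and Tdg), where 58.1% of all genes passed, so the count is near the background. With the slide as a block 1 of 7 passed (Uhrf1), where 2.2% of all genes passed. In C3H mice 3 of 7 passed, all higher (Uhrf1, Dnmt3a and Tet3), where 14.7% of all genes passed.

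**Figure D1:**
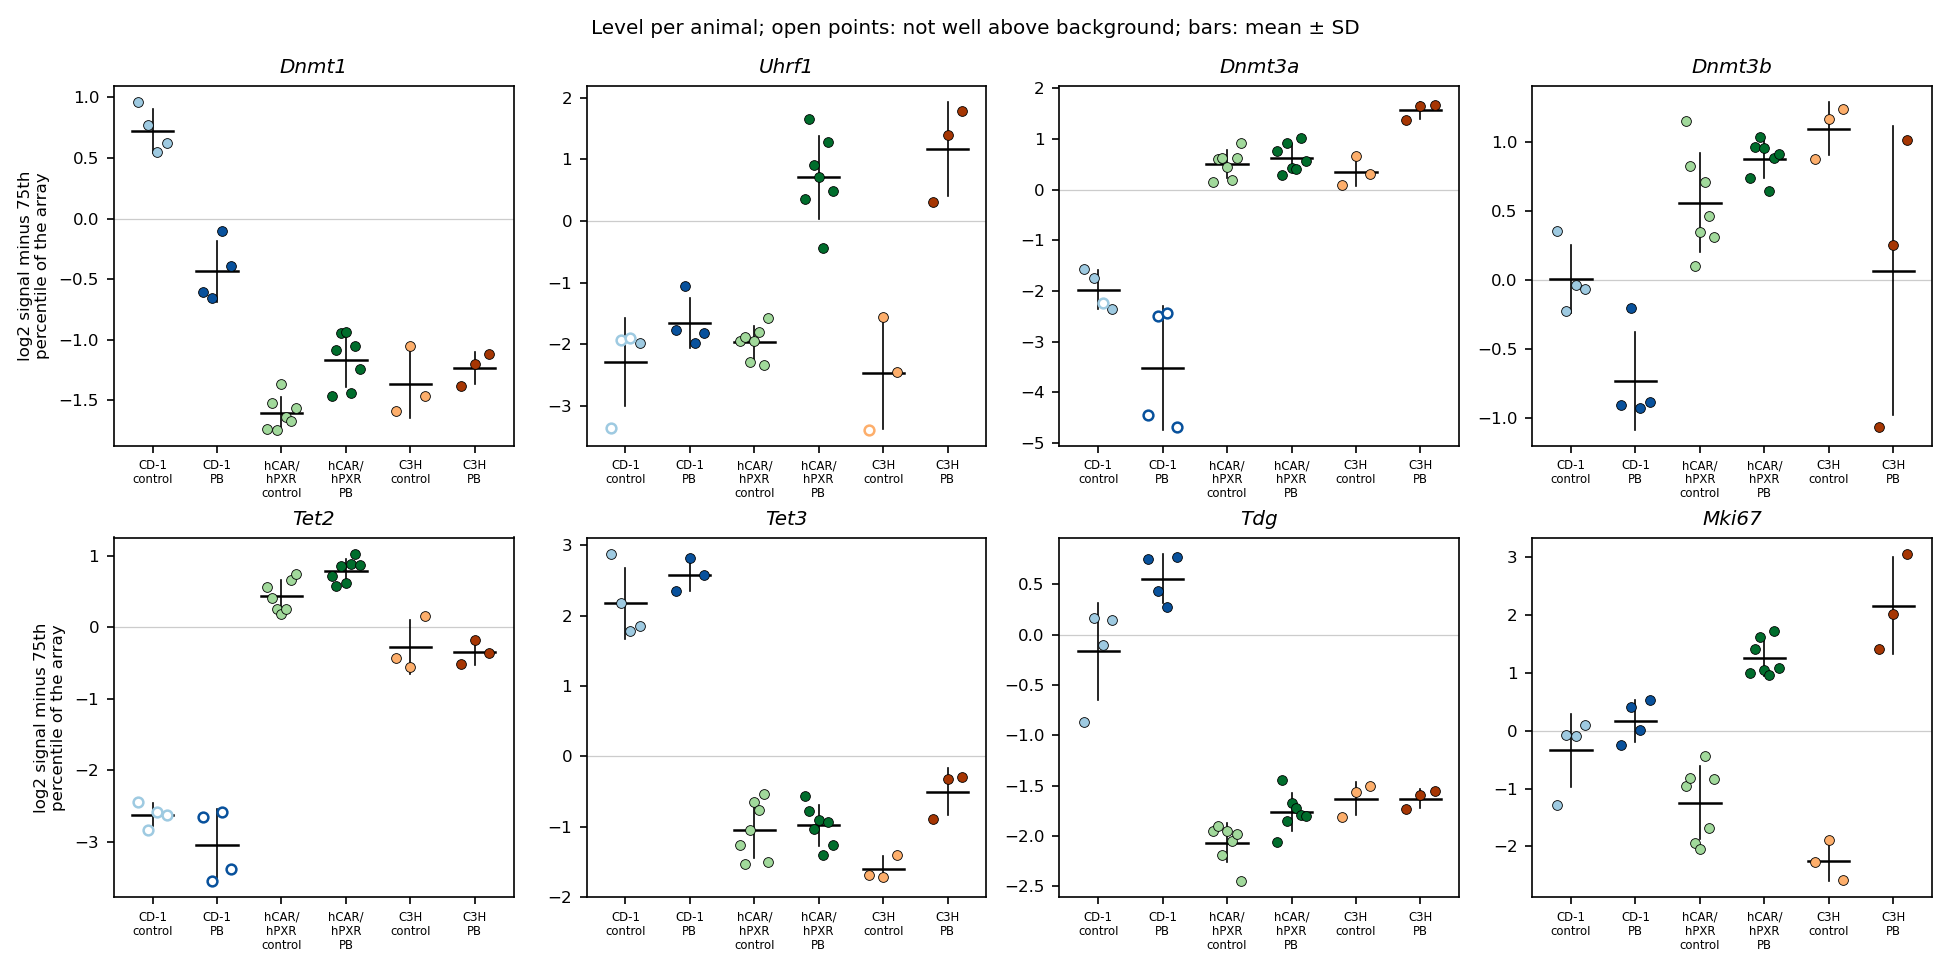
Level of each gene in each animal (vertical axis, log2 signal minus the 75th percentile of the array) by group (horizontal axis), with the mean and SD as bars and open points where the probe was not well above background. Uhrf1 and Mki67 of all hCAR/hPXR and C3H PB animals lie above all controls of their strain, and Dnmt1 of the CD-1 PB animals lies below all CD-1 controls.

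Promoter sequence of the genes compared most closely, Uhrf1, Dnmt1 and Mki67, is shown first. Uhrf1 and Dnmt1 have several annotated starts, and the windows shown for them were chosen because they hold an E2F match. The windows are RefSeq's for GRCm38.p6, from 250 bases before to 50 after an annotated start, and were searched on both strands for 3 kinds of motif: E2F (TTTCCCGC, TTTCGCGC, TTTGCCGC or TTTGGCGC), the cell-cycle homology region or CHR (TTTGAA), and the CCAAT box (CCAAT). Of 32851 mouse promoters of this length, 2.26% held an E2F match, 17.9% a CHR and 37.4% a CCAAT box. Below are the 250 bases before the start of Uhrf1 on the plus strand of chr17:56304063-56304312 and of Mki67 on the minus strand of chr7:135716380-135716629, both 5′ to 3′, with matches of any of the 3 motifs in capitals.
Uhrf1: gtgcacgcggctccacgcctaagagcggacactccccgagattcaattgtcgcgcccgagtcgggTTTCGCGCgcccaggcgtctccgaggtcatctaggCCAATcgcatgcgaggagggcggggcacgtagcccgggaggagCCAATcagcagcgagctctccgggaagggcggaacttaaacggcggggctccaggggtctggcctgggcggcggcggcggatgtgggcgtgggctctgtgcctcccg
Mki67: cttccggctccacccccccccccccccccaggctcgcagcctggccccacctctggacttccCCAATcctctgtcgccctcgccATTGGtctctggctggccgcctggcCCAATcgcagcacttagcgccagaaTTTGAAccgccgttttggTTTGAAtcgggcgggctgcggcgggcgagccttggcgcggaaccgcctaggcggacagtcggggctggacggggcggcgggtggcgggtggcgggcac
The Uhrf1 stretch held 1 E2F match, which began 185 bases before the start, and 2 CCAAT boxes. That of Mki67 held 2 CHR elements and 3 CCAAT boxes and no E2F match. For Dnmt1, whose window lies on the minus strand of chr9:20952574-20952873, the surroundings of its 2 E2F matches are shown, with these in capitals, from chr9:20952824-20952853 and chr9:20952574-20952601.
Dnmt1 upstream: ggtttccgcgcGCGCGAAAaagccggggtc
Dnmt1 downstream: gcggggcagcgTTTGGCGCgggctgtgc
The first of these began 219 bases before the annotated start and the second 33 bases after it. The same Dnmt1 window held 3 CCAAT matches in 2 places, as 1 pair overlapped, and no CHR. Both windows were rich in CpG, with 33 such pairs each against a median of 7 over all promoters. No E2F match lay in the other windows listed for Dnmt1 and Uhrf1 or in those of Dnmt3a, Dnmt3b, Tet1, Tet2, Tet3 and Tdg. Another Dnmt1 window, chr9:20959839-20960138, held 1 CHR and 5 CCAAT boxes. These matches describe letters in the windows and not binding.

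Dnmt1, the maintenance methyltransferase, was well above background on all 28 arrays. In CD-1 mice its level was 0.96, 0.77, 0.55 and 0.62 in the controls and -0.60, -0.65, -0.10 and -0.39 in the PB animals. All PB animals lay below all controls. The mean fell by 1.16 ± 0.26 (SE) on the log2 scale, to a level 2.23-fold lower (limma, adjusted p = 0.0159). Before scaling, the processed signals of the groups overlapped, at 72.9 to 122 in controls and 57.5 to 85.6 with PB, so the difference also holds the 75th percentile of each array. Without CD-1 control 1 the fall was 1.08 (adjusted p = 0.0280), and without PB animal 2 it was 1.09 and no longer passed (adjusted p = 0.0662).

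Dnmt1 of hCAR/hPXR mice moved the other way and by less. Its level ranged from -1.74 to -1.37 in controls (median -1.64) and from -1.47 to -0.94 in PB animals (median -1.09). The groups overlapped, and PB animals 1 and 5, at -1.47 and -1.44, lay within the control range. Dnmt1 rose by 0.44 ± 0.10 (limma, adjusted p = 0.0019), 1.35-fold, where the median of all genes rose by 0.13. With the slide as a block the difference was 0.14 ± 0.18 (adjusted p = 0.7736). In C3H mice the Dnmt1 levels were -1.58, -1.06 and -1.46 in controls and -1.38, -1.20 and -1.12 with PB, which overlap. That difference, 0.13 ± 0.17, did not pass (limma, adjusted p = 0.6206).

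Uhrf1, the protein that recruits Dnmt1 to replicated DNA, gave the largest change of the set in hCAR/hPXR and C3H mice. It ranged in hCAR/hPXR mice from -2.33 to -1.57 in controls (median -1.94) and from -0.43 to 1.66 with PB (median 0.71). All PB animals were above all controls, and PB animal 1, which shared the controls' slide, was at 0.35. The rise was 2.68 ± 0.25 on the log2 scale, or 6.401-fold (limma, adjusted p = 3.71e-06), and it was 2.32 ± 0.51 with the slide as a block (adjusted p = 0.0330). PB animal 5, the lowest of its group in Uhrf1, was also the lowest in Mki67, at 0.97.

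In C3H mice Uhrf1 was at -3.39, -1.55 and -2.46 in controls, the first of these not well above background, and at 0.32, 1.40 and 1.78 with PB. The groups did not overlap. The rise was 3.63 ± 0.55, or 12.4-fold (limma, adjusted p = 0.0129). It was 3.63 without control 3 and 3.52 without PB animal 2, and in both cases it missed the threshold (adjusted p = 0.0582 and 0.0560). In CD-1 mice Uhrf1 was dim: it was well above background in 1 of 4 controls and in all PB animals. CD-1 controls were at -3.37, -1.93, -1.89 and -1.98 and PB animals at -1.76, -1.06, -1.98 and -1.82. These overlapped and the difference of 0.64 ± 0.37 did not pass (limma, adjusted p = 0.2746). Without control 1, the lowest animal, it was 0.28 (adjusted p = 0.6187).

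The other Uhrf1 probe, matched to another transcript record, was not well above background on any hCAR/hPXR or C3H array, so the Uhrf1 rise rests on 1 probe. In CD-1 mice that probe was well above background in 3 of 4 animals of each group, and it was not tested.

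**Figure D2:**
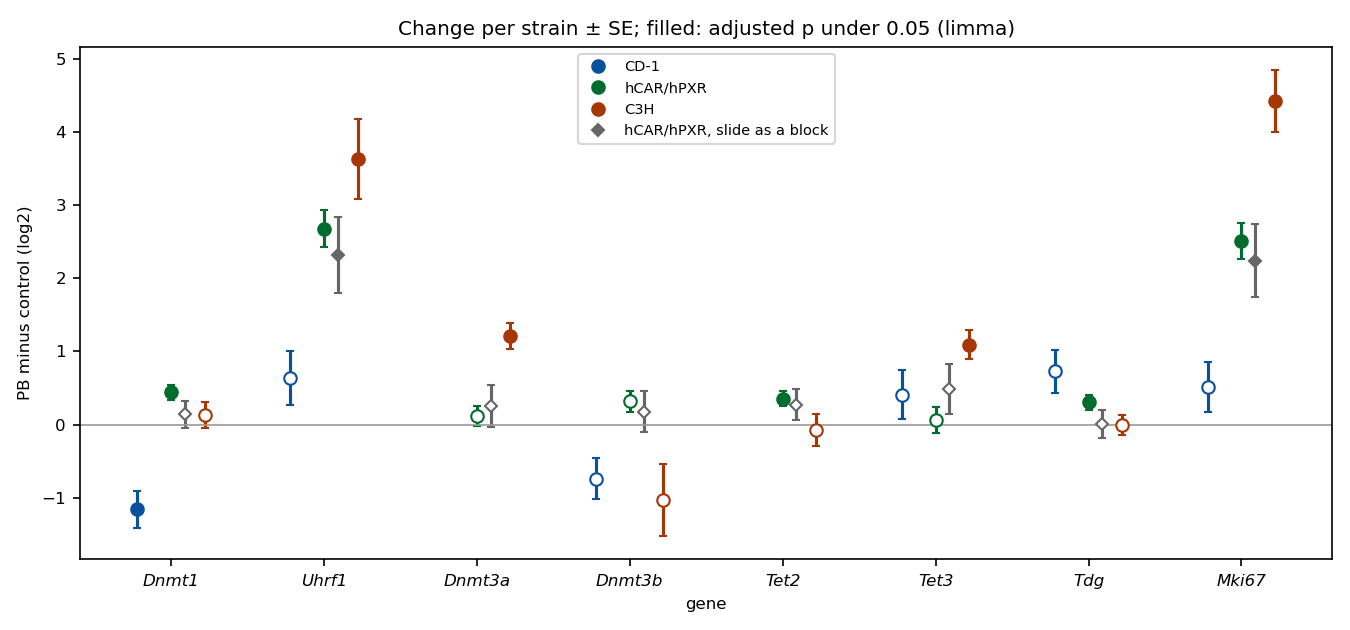
Difference between PB and control (vertical axis, log2) for each gene (horizontal axis) in the 3 strains, with the SE as bars and filled points where limma's adjusted p was under 0.05. Diamonds give hCAR/hPXR with the slide as a block, where Uhrf1 stays at 2.32 and Dnmt1 lies at 0.14.

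Mki67 itself rose by 2.51 ± 0.25 in hCAR/hPXR mice (5.70-fold, limma, adjusted p = 4.72e-06), and by 2.24 with the slide as a block (adjusted p = 0.0358). Its level ranged from -2.04 to -0.44 in those controls (median -0.95) and from 0.97 to 1.72 with PB (median 1.09), with no overlap. In C3H mice it was at -2.27, -1.89 and -2.59 in controls and at 1.41, 2.03 and 3.06 with PB, a rise of 4.42 ± 0.42 or 21.4-fold (adjusted p = 0.0032). In CD-1 mice the groups overlapped and the difference was 0.51 ± 0.34 (adjusted p = 0.3460), or 0.20 without control 1. A second Mki67 probe gave 2.36 in hCAR/hPXR and 4.65 in C3H mice. In CD-1 mice it gave 1.24 and was not tested, being well above background in 1 of 4 controls and 3 of 4 PB animals. The mean of both probes gave 0.87 there (limma, adjusted p = 0.2224).

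Whether a gene changed by the same amount as Mki67 was tested by subtracting the Mki67 level of each animal and comparing PB with control by exact two-sided permutation tests, adjusted over the members of a strain. The Uhrf1 change in hCAR/hPXR mice exceeded that of Mki67 by 0.17 (exact p = 0.5332), a difference that the test did not set apart from 0. With normexp on the median signals followed by quantile normalization that value was -0.07, and with the mean of both Uhrf1 probes, of which the second is below background, it was -0.84 (exact permutation test, adjusted p = 0.0216). For Dnmt1 the change minus that of Mki67 was -2.07 on the log2 scale: the difference from Mki67 went from -0.36 ± 0.67 (SD, n = 7) in controls to -2.43 ± 0.24 in PB animals, with no overlap. Its exact permutation p of 5.83e-04 (adjusted 6.80e-04) is the smallest that 7 against 7 can give. This was not particular to Dnmt1: the remaining 5 genes gave values from -2.16 to -2.45, each with the same p and without overlap. Tet3, whose own difference was 0.06, was among them. All these values hold the Mki67 rise of 2.51, so the p shows only that these genes did not rise as Mki67 did. On the controls' slide alone, with PB animal 1, the Dnmt1 value was -2.10 but 1 animal against 7 cannot give an exact p that passes (adjusted permutation p = 0.1458).

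The same comparison in C3H mice gave -0.79 for Uhrf1 (exact permutation p = 0.3), with overlapping groups. That value ran from -1.24 to -0.51 when 1 animal was left out and was -2.41 with the mean of both Uhrf1 probes (exact permutation test, adjusted p = 0.1). Dnmt1 gave -4.29 with no overlap (exact permutation p = 0.1, the smallest that 3 against 3 can give). This was not particular to Dnmt1: Dnmt3a, Dnmt3b, Tet2, Tet3 and Tdg, from -3.21 to -5.45, gave the same p without overlap. All these values hold the Mki67 rise of 4.42. In CD-1 mice the values were 0.13 for Uhrf1 (exact permutation p = 0.5429; -0.20 after quantile normalization) and -1.67 for Dnmt1, whose exact permutation p of 0.0286 is the smallest possible there and became 0.0714 after adjustment.

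Across animals within a group, a relation with Mki67 could be examined only in hCAR/hPXR mice. Among the 7 PB animals Uhrf1 gave Pearson's r = 0.75 (exact permutation p = 0.0480, adjusted over 14 relations 0.3875) and Spearman's rho = 0.86 (exact permutation p = 0.0238, adjusted 0.3333). Without the 2 animals farthest from the median of Mki67 its r was 0.91, and over the 6 PB animals of 1 slide it was 0.74. Among controls the Uhrf1 r was 0.70 (exact permutation p = 0.0946, adjusted 0.3875) with rho = 0.64 (exact permutation p = 0.1389, adjusted 0.5333). Dnmt1 gave r = 0.65 in PB animals (exact permutation p = 0.1306, adjusted 0.3875) with rho = 0.57 (exact permutation p = 0.2000, adjusted 0.5333). In controls its r was -0.14 (exact permutation p = 0.7659, adjusted 0.8155) with rho = 0.11 (exact permutation p = 0.8397, adjusted 0.9761), and r turned to 0.32 without the 2 farthest animals. None of these passed after adjustment.

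**Figure D3:**
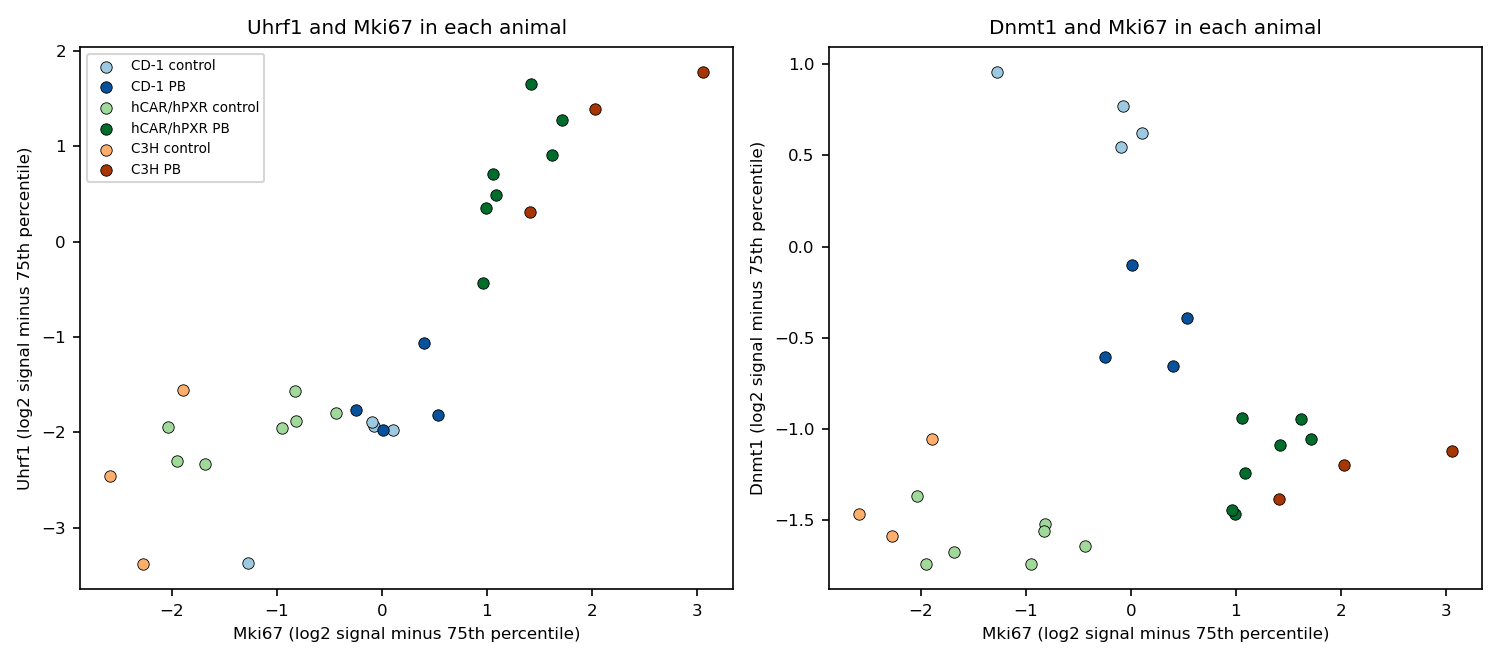
Level of Uhrf1 (left) and Dnmt1 (right) against that of Mki67 in each of the 28 animals, in log2 signal minus the 75th percentile of the array, coloured by group. The hCAR/hPXR and C3H PB animals, with Mki67 from 0.97 to 3.06, have Uhrf1 levels from -0.43 to 1.78, whereas their Dnmt1 levels, from -1.47 to -0.94, overlap those of the controls of the same strain.

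As a description, all named genes that were well above background on every array were ranked by the correlation of their level with Uhrf1 over 28 arrays after group means were subtracted. The 5 most alike were Pmm1 (r = 0.70), Fbxo5 (0.69), Rbbp8 (0.69), Klc1 (0.67) and Rcc1 (0.66), and Mki67 came 6th of 8197 with 0.66. Uhrf1 was not well above background on 4 of these arrays, among them that of CD-1 control 1, the lowest of its group in both Uhrf1 and Mki67, and the rank was not computed without them. Dnmt1 was at place 458 with 0.32. For Dnmt1 the first 3 were Baiap2 (0.70), Ankrd13b (0.68) and Clk3 (0.68). Mki67 took place 4979 of 8196 on that list, with r = 0.10. The medians over all candidates were -0.11 for Uhrf1 and 0.16 for Dnmt1, and the points share their arrays and slides.

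Dnmt3a, a de novo methyltransferase, rose with PB in C3H mice. Its levels there were 0.09, 0.66 and 0.31 in controls and 1.38, 1.65 and 1.66 with PB, without overlap. The rise was 1.21 ± 0.18 or 2.31-fold (limma, adjusted p = 0.0128). It was 1.19 without control 3 and 1.17 without PB animal 2, which missed the threshold (adjusted p = 0.0600 and 0.0560). Dnmt3a of hCAR/hPXR mice ranged from 0.15 to 0.93 in controls (median 0.60) and from 0.29 to 1.01 with PB (median 0.56), a difference of 0.12 ± 0.14 (adjusted p = 0.4911). The difference between these changes, 1.09, did not pass (limma, adjusted p = 0.1514). It was 0.59 and passed with normexp followed by quantile normalization (limma, adjusted p = 0.0172). In CD-1 mice the probe was dim and was not tested: it was well above background in 3 of 4 controls and no PB animal, and controls were at least 1.78-fold higher by that bound.

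Dnmt3b, the other de novo enzyme, did not pass in any strain. In CD-1 mice it was at 0.35, -0.22, -0.04 and -0.07 in controls and at -0.91, -0.20, -0.93 and -0.89 with PB, a difference of -0.74 ± 0.28 (limma, adjusted p = 0.1121). PB animal 2 lay apart from the rest of its group. It ranged in hCAR/hPXR mice from 0.10 to 1.15 in controls (median 0.46) and from 0.65 to 1.04 with PB (median 0.92), a difference of 0.32 ± 0.14 (adjusted p = 0.0642). That value passed when control 1 (0.42, adjusted p = 0.0075) or control 2 (0.36, adjusted p = 0.0469) was left out. The C3H animals were at 0.88, 1.17 and 1.24 in controls and at -1.06, 0.26 and 1.01 with PB, so the PB animals differed widely among themselves (-1.03 ± 0.49, adjusted p = 0.1877). That difference was -0.46 without PB animal 1 and -1.50 without PB animal 3, and it passed in 1 fit of all arrays (adjusted p = 0.0292). The other 2 Dnmt3b probes gave -1.01 and -0.89 in C3H mice, neither of which passed, but 0.35 and 0.02 in CD-1 mice and -0.11 and 0.10 in hCAR/hPXR mice.

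Tet2, which oxidises 5-methylcytosine, was dim in CD-1 mice: its brightest probe was not well above background on any array there, and the other was in 1 PB animal. Its level ranged in hCAR/hPXR mice from 0.18 to 0.74 in controls (median 0.40) and from 0.58 to 1.02 with PB (median 0.85), which overlap. It rose by 0.35 ± 0.10 (limma, adjusted p = 0.0099), and the difference was 0.27 with the slide as a block (adjusted p = 0.5938). In C3H mice its levels were -0.43, -0.56 and 0.15 in controls and -0.52, -0.18 and -0.36 with PB, a difference of -0.07 ± 0.22 (adjusted p = 0.8400). Its second, dimmer probe disagreed there with -1.002 (limma, adjusted p = 0.0275), and was well above background in 3 of 3 controls and 1 of 3 PB animals.

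Tet3 belongs to the same family of oxidases. Its brightest probe was higher with PB in C3H mice, at -1.68, -1.71 and -1.40 in controls and -0.89, -0.33 and -0.30 in PB animals, without overlap. The rise was 1.09 ± 0.20 or 2.13-fold (limma, adjusted p = 0.0216). It was 0.99 to 1.28 when 1 animal was left out and kept the threshold only without PB animal 1: without control 1, 2 or 3 the adjusted p was 0.0827, 0.0732 and 0.0620, and without PB animal 2 or 3 it was 0.0793 and 0.0613. The mean of the 3 Tet3 probes gave 0.11 (adjusted p = 0.7521), and the other 2 probes were not well above background on every array of a C3H group and were not tested there. Tet3 of hCAR/hPXR mice ranged from -1.54 to -0.53 in controls (median -1.05) and from -1.41 to -0.56 with PB (median -0.93), a difference of 0.06 ± 0.18 (adjusted p = 0.7841). CD-1 controls were at 2.88, 2.18, 1.78 and 1.86 and PB animals 1 to 3 at 2.34, 2.82 and 2.58, and the fit used these 3 because PB animal 4 had no usable spot (0.41 ± 0.33, adjusted p = 0.4463).

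Tdg, the glycosylase that cuts out the further oxidised bases, passed in hCAR/hPXR mice alone. Levels in hCAR/hPXR mice ranged from -2.45 to -1.90 in controls (median -1.98) and from -2.06 to -1.44 with PB (median -1.79), with overlap. It rose by 0.30 ± 0.10 (limma, adjusted p = 0.0206). That rise was 0.01 with the slide as a block (adjusted p = 0.9877), and a second Tdg probe gave -0.34 (adjusted p = 0.0381), the opposite direction. In C3H mice the Tdg levels were -1.81, -1.57 and -1.50 in controls and -1.74, -1.59 and -1.55 with PB, a difference of 0.00 ± 0.14 (adjusted p = 0.9969). In CD-1 mice they were -0.87, 0.16, -0.10 and 0.15 in controls and 0.75, 0.43, 0.28 and 0.78 with PB. Those groups did not overlap, but the difference of 0.72 ± 0.30 did not pass (adjusted p = 0.1418). It passed in 1 fit of all arrays (limma, adjusted p = 0.0061). Of the other Tdg probes in CD-1 mice, 1 gave 0.67 (limma, adjusted p = 0.2487) and 1 gave 0.40 and was not tested.

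The order of levels over the 6 groups differed between genes. Strain, slide, scan resolution and the signal range of the arrays cannot be told apart in it. By the headers, the 99th percentile of net signal was 4026.9 to 6495.4 on CD-1 arrays. It was 30187.5 to 47746.5 on hCAR/hPXR arrays and 22076.7 to 31766.7 on C3H arrays. The median probe of an array, by the deposited values, was at -1.73 to -1.30 in CD-1 animals and -3.86 to -2.86 in the others. The part of signal range in the order was not tested. Dnmt1 was highest in CD-1 controls (0.72 ± 0.18, SD, n = 4), then CD-1 PB animals (-0.44 ± 0.25, SD, n = 4). Below these came hCAR/hPXR PB animals, C3H PB animals, C3H controls and hCAR/hPXR controls, from -1.17 to -1.61, whose neighbours in the order overlapped. Uhrf1 was highest in C3H PB animals (1.16 ± 0.76, SD, n = 3) and hCAR/hPXR PB animals (0.71 ± 0.68, SD, n = 7), which overlapped, and the other 4 groups lay between -2.46 and -1.65, each overlapping the next. By their brightest probes Tet3 and Tdg were highest in both CD-1 groups, whereas Dnmt3a and Tet2 were lowest there. A dimmer Tdg probe gave the opposite, with its lowest levels in CD-1 mice (-3.04 in controls and -2.64 with PB), where it was well above background in 1 of 8 animals.

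Whether the PB effect differed between strains, each at its own dose and duration, was tested with limma by interaction terms of a model over all arrays. The 3 comparisons share groups with each other, and the arrays of the strains differed in signal range, as given above. Between hCAR/hPXR and CD-1 mice 3 of 5 tested members passed, where 40.2% of all genes passed. Uhrf1 differed by 2.04 ± 0.50 (adjusted p = 0.0025), Dnmt1 by 1.60 ± 0.20 (adjusted p = 3.19e-06) and Dnmt3b by 1.06 ± 0.35 (adjusted p = 0.0184). The median of all genes in that comparison was 0.33, and 0.19 after quantile normalization, and 74.4% of the calls were higher, or 63.5% after that normalization. For Dnmt3b the mean of its 3 probes gave 0.22 (adjusted p = 0.5067).

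Between C3H and CD-1 mice 2 of 5 passed, where 18.7% of all genes passed: Uhrf1 by 2.99 ± 0.61 (adjusted p = 0.0012) and Dnmt1 by 1.29 ± 0.24 (adjusted p = 4.40e-04). Both Uhrf1 differences from CD-1 mice are imprecise in size, since Uhrf1 was well above background in 1 of 4 CD-1 controls and, for C3H, in 2 of 3 controls. Between C3H and hCAR/hPXR mice 1 of 7 passed, where 9.41% of all genes passed and 39% of the calls were higher, or 59.6% after quantile normalization. That was Dnmt3b, with -1.34 ± 0.38 (adjusted p = 0.0274), which missed the threshold after quantile normalization (-1.03, adjusted p = 0.1988) and after leaving out C3H control 2 (-1.31, adjusted p = 0.0635), control 3 (-1.27, adjusted p = 0.0844) or PB animal 1 (-0.78, adjusted p = 0.1082). Uhrf1 gave 0.95 ± 0.55 (adjusted p = 0.2902) and Dnmt1 -0.31 ± 0.22 (adjusted p = 0.3986) between these strains. Tet3 gave 1.03 ± 0.34 (adjusted p = 0.0531). The Tet3 difference passed without hCAR/hPXR control 2, control 7 or PB animal 1, or without C3H PB animal 1 (adjusted p = 0.0255 to 0.0398). With the mean of its probes it was 0.30 (adjusted p = 0.6148). Mki67 differed in all 3 comparisons, by 2.001 (hCAR/hPXR minus CD-1, adjusted p = 0.0012), 3.91 (C3H minus CD-1, adjusted p = 1.33e-05) and 1.91 (C3H minus hCAR/hPXR, adjusted p = 0.0135), but the first and the last were lost with quantile normalization (1.25, adjusted p = 0.0617, and 1.28, adjusted p = 0.27) and with normexp followed by it (0.45, adjusted p = 0.3121, and 0.84, adjusted p = 0.2145). The last also missed the threshold without C3H control 3 (1.74, adjusted p = 0.0588) or PB animal 3 (1.46, adjusted p = 0.0812).

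Division genes are listed next to show the setting in which Uhrf1 rose. Of 16 mitosis genes tested in hCAR/hPXR mice 16 were higher, with a median of 2.51, where 58.1% of all genes were called. With the slide as a block 7 were higher, where 2.2% of all genes were called. In C3H mice 18 of 18 were higher with a median of 4.43, where 14.7% of all genes were called. Of these, 7 were below background in all controls and were tested only through their PB arrays, so the filter fixed their direction. With those 7 at their lower bound the median was 3.71. Among the 18 mitosis genes in C3H mice was Cdc20, an activator of the anaphase-promoting complex (5.25 ± 0.38, limma, adjusted p = 0.0015). Others were the survivin gene Birc5 (4.76), the cyclin Ccna2 (4.72) and the mitotic kinesin Kif20a (4.52). Those of hCAR/hPXR mice included Birc5 (2.21), Ccna2 (2.51) and the ubiquitin-conjugating enzyme Ube2c (2.21). Bub1, a checkpoint kinase, was at least 1.83-fold higher. It was below background in all controls, so it too was tested only through its PB arrays. In CD-1 mice 3 of 9 tested were higher, where 7.99% of all genes were called. These were Cdc20 (at least 3.68-fold, tested only through its PB arrays), the kinesin Kif11 (1.65) and Birc5 (1.94).

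Genes of S phase had smaller medians. In hCAR/hPXR mice 18 of 21 were higher and 1 lower, with a median of 1.05, where 58.1% of all genes were called. With the slide as a block 2 of them passed (Gins2 and E2f1), where 2.2% of all genes passed. Examples were the replication factor Gins2 (1.60 ± 0.12, limma, adjusted p = 5.63e-07), the transcription factor E2f1 (1.04), the chromatin assembly subunit Chaf1b (1.22) and the helicase subunit Mcm4 (1.12). In C3H mice 12 of 21 were higher with a median of 1.27, where 14.7% of all genes were called. Among the 12 were Chaf1b (1.77), the cyclin Ccne1 (2.02), the ribonucleotide reductase subunit Rrm2 (3.95) and E2f1 (1.38). None of 15 passed in CD-1 mice (limma), where the median was 0.10.

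Partners of maintenance methylation had medians near that of all genes. In hCAR/hPXR mice 5 of 11 were higher and 1 lower, none with the slide as a block, with a median of 0.24, where 58.1% of all genes were called. They included the sliding clamp Pcna (0.64 ± 0.10, limma, adjusted p = 1.38e-04), Cdca7, which activates the remodeller Hells (0.71), Trim28, a corepressor (0.42), and Uhrf2, the paralog of Uhrf1 (0.28). In C3H mice, where 14.7% of all genes passed, 1 of 11 passed: Pcna, at 0.90 ± 0.18 (adjusted p = 0.0260), while Uhrf2 was at 0.04. None of 10 passed in CD-1 mice.

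The list of de novo cofactors and methyltransferase relatives gave 2 higher and 2 lower of 8 in hCAR/hPXR mice, none with the slide as a block and no more than the 58.1% of all genes called there. Dnmt3l, the catalytically inactive relative that stimulates Dnmt3a, was lower in CD-1 mice, the 1 of 7 that passed there (fell by 1.70 ± 0.29, limma, adjusted p = 0.0038), and in hCAR/hPXR mice (fell by 0.81, adjusted p = 5.55e-04). Ehmt1 (-0.64), Ehmt2 (0.40), both histone H3 lysine methyltransferases, and the tRNA methyltransferase Trdmt1 (0.34) were the others in hCAR/hPXR mice. In C3H mice none of 7 passed, and of all genes 7.99% passed in CD-1 and 14.7% in C3H mice. Of the Tet cofactors and repair genes 6 of 16 were higher in hCAR/hPXR mice, under the share of all genes and none with the slide as a block, by adjusted p first Parp1 (0.41), the endonuclease Apex1 (0.63), the stress-induced Gadd45a (1.82) and the glycosylase Smug1 (0.27). In C3H mice 1 of 15 passed, where 14.7% of all genes passed. That was Idh2, an isocitrate dehydrogenase that yields the cosubstrate of the Tet enzymes (1.15 ± 0.17, limma, adjusted p = 0.0129). None of 14 passed in CD-1 mice. Methyl-CpG readers gave 2 higher (Mbd3, 0.73, and Zbtb4, 0.26) and 2 lower (Mbd5, -0.59, and Zbtb38, -0.32) of 9 in hCAR/hPXR mice. This did not exceed the 58.1% of all genes called there. With the slide as a block 1 was lower (Mbd5, -1.17), where 2.2% of all genes passed. In C3H mice 1 of 9 readers passed (Mbd6, 0.51), where 14.7% of all genes passed, and in CD-1 mice none of 7.

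The S-adenosylmethionine cycle supplies the methyl groups that the Dnmt enzymes use. In C3H mice 1 of 18 was higher and 4 were lower, with a median of -0.49, where 14.7% of all genes were called. The one that rose was Mat2a, the synthetase form of extrahepatic and growing tissue (1.61 ± 0.22, limma, adjusted p = 0.0093), and the falls were in Cbs (-1.16), Bhmt (-1.90), Ahcyl2 (-1.02) and the nicotinamide methyltransferase Nnmt (-4.08). Cbs and Bhmt, which use homocysteine, were also lower in CD-1 mice (-1.29 and -1.16), where 3 of 16 tested were lower and none higher. Of all genes 7.99% were called in CD-1 mice. Among hCAR/hPXR mice 10 of 18 were higher, a share near the 58.1% of all genes called there, with a median of 0.29. By adjusted p the first were Mat2a (0.70), Gamt (0.53), Mthfd1 (0.40) and Mtr (0.44). None of these 10 passed with the slide as a block, where Cbs alone of the list was called (-0.66, adjusted p = 0.0467).

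**Figure D4:**
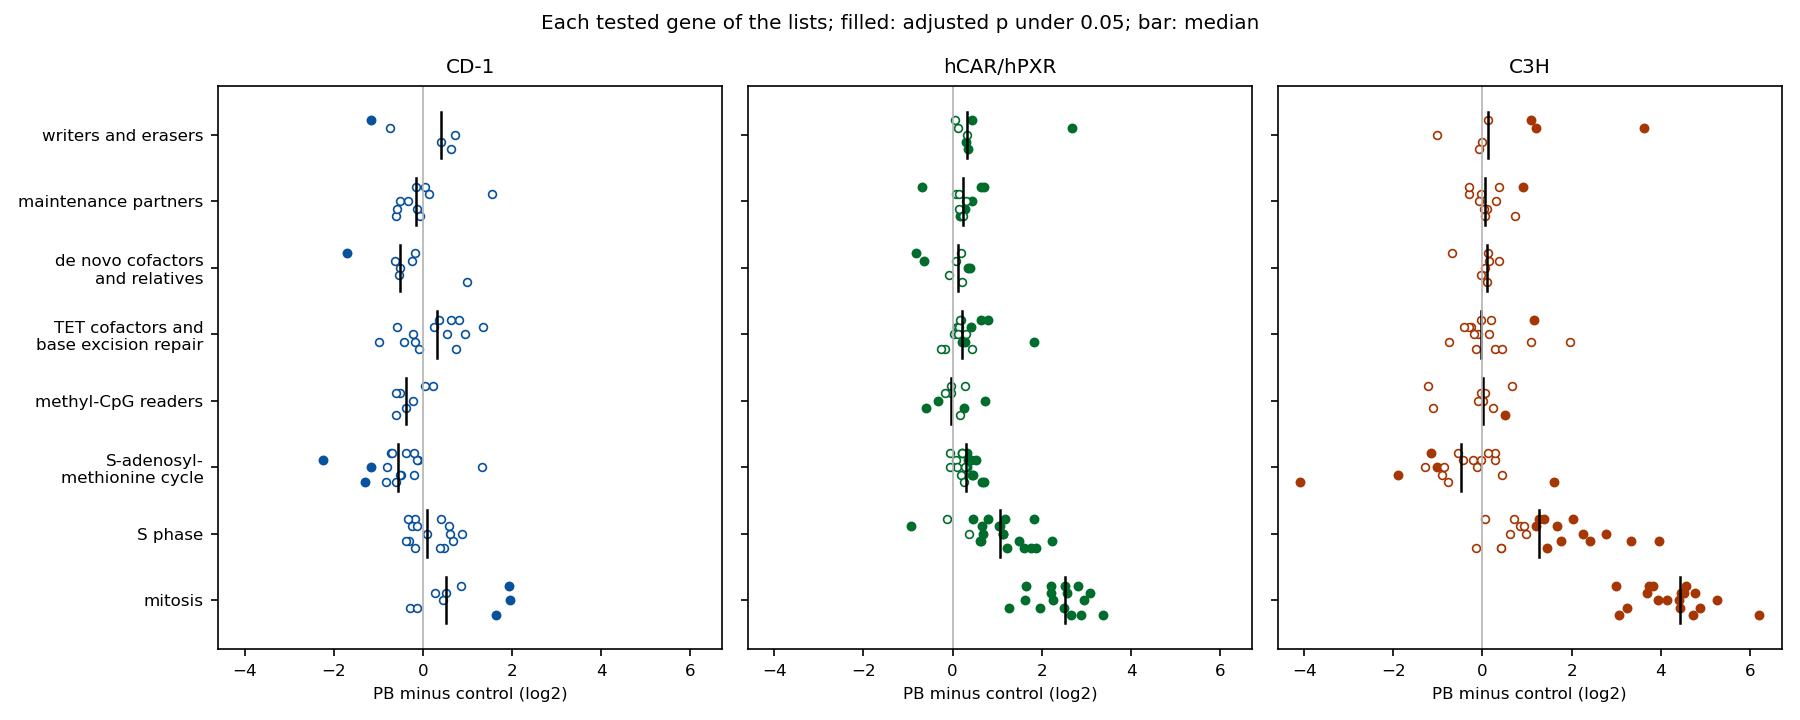
Difference between PB and control (horizontal axis, log2) of every tested gene of the methylation set and of 7 lists (vertical axis) in each strain, with filled points for limma's adjusted p under 0.05 and a bar at the median. The medians of the mitosis genes are 0.51, 2.51 and 4.43, while those of the partners, cofactors, readers and repair genes run from -0.51 to 0.31.

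In whole liver, fewer cells of a type and less RNA per cell cannot be told apart. Beside the marker counts below, the share of all genes called was 7.99% in CD-1, 58.1% in hCAR/hPXR and 14.7% in C3H mice. Hepatocyte markers were lower in C3H PB animals for 3 of 5 genes (Alb, Apoa1 and Ttr), with a summed level, as multiples of the 75th percentile signal, of 6820 to 7420 in controls and 4380 to 5440 with PB. In CD-1 mice 2 of 5 were lower, at 3770 to 6230 and 2850 to 4480, and in hCAR/hPXR mice none, at 3020 to 3850 and 2790 to 3850. Kupffer cell and macrophage markers were higher for 5 of 8 in hCAR/hPXR mice, where 58.1% of all genes were called, at 124 to 167 and 133 to 271, and lymphocyte markers were lower for 3 and higher for 1 of 5, at 37.7 to 56.0 and 18.7 to 28.9. In C3H mice no macrophage marker of 8 and no lymphocyte marker of 3 passed (limma). The summed level of macrophage markers was 97.6 to 128 in controls and 83.8 to 99.9 with PB, which overlap, and that of lymphocyte markers was 53.5 to 72.6 and 20.1 to 41.5, which do not. Summed levels in C3H mice were also lower without overlap for endothelial cells (76.5 to 81.7 in controls, 49.8 to 63.6 with PB). The same held for stellate cells (86.3 to 106 and 37.4 to 84.5) and red cell precursors (265 to 356 and 198 to 244). A sum is carried by its brightest genes. The median log2 difference of the tested stellate cell markers went the other way, at 0.74. It was -0.04 for endothelial cells and -0.42 for red cell precursors. In hCAR/hPXR mice the endothelial sum was also lower without overlap (52.3 to 66.9 and 38.8 to 44.7). Lymphocyte markers such as Cd8a, Cd79a and Ms4a1 were not well above background on any C3H array. Bile duct markers gave 2 of 3 higher in hCAR/hPXR mice and 1 higher (Krt19) and 1 lower (Sox9) of 3 in C3H mice. In CD-1 mice 1 neutrophil marker of 5, S100a8, was 6.67 higher on the log2 scale. Neutrophil markers were lower for 2 of 4 in hCAR/hPXR mice and none of 4 passed in C3H mice. Endothelial markers gave 1 higher and 1 lower of 6 in each of these strains and none of 5 in CD-1 mice (limma). Stellate cell and fibroblast markers gave 2 higher and 1 lower of 6 (hCAR/hPXR), none of 6 (C3H) and 1 lower of 4 (CD-1). Of red cell precursor markers 1 of 5 was higher in hCAR/hPXR mice and none of 5 passed elsewhere, and no bile duct marker of 4 passed in CD-1 mice. In hCAR/hPXR mice the shares of neutrophil, endothelial, stellate and red cell markers called did not exceed the 58.1% of all genes. With the slide as a block no marker of these 8 cell types passed in hCAR/hPXR mice. The part of these cell types in the Dnmt1, Uhrf1, Dnmt3a and Tet3 results was not tested.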

How the data were processed

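Liver RNA of 28 mice was hybridised to Agilent 1-colour arrays with 62976 spots. Per the file headers, the authors' scanner files hold intensity values from Feature Extraction 10.7.3.1: the processed signal, background-subtracted and detrended within an array, and median spot and background signals. The authors' deposited value table holds log2 values that equal the log2 processed signal minus a constant per array. Probes were named here: RefSeq accessions, without version, were matched to GRCm38.p6 names, which named 26582 probes (20145 symbols) and left 29099 without a symbol.

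Outlier spots were left out, copies of a probe averaged, and the 75th percentile of 55681 non-control probes subtracted on the log2 scale. No spot was saturated. A gene was represented by its brightest probe and tested where well above background on every array of 1 or more groups. Each strain had its own fit of PB against control (limma 3.58.1, R 4.3.3), with 6 residual degrees of freedom for CD-1, 12 for hCAR/hPXR and 4 for C3H animals. P-values were adjusted by Benjamini and Hochberg over all genes tested, with a threshold of 0.05. The lowest level counted as measured was the dimmest well-above-background signal of each array, and "at least" folds use it. The number of arrays limits the precision.

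The genes and lists were chosen with earlier results of these data known. Named are the 8 genes and Mki67, the genes most alike to Dnmt1 (3) and Uhrf1 (5), and up to 4 called members of each list with the smallest adjusted p; further members were named after their values were seen. Some genes that this rule names are not reported here. The fits were tested on simulated data. Alternatives covered normalization, background correction, the deposited table, probe choice, filters, the slide and replicate number as blocks, 1 fit of 28 arrays, and leaving out each animal.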

Additional observations from a re-analysis of the deposited data

Results flagged for a closer look

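Within groups of 4 to 10 animals, 31 combinations of gene and group were examined for an animal set apart, by the gap to its nearest neighbour as a share of the group's range. Chance sets apart about 1 in 20 such groups. Dnmt3b in PB-fed CD-1 animal 2 was the highest of its group at -0.20, with a gap of 0.941 of the range. In CD-1 control 1, the array with fewest probes above background in that strain, Uhrf1 (-3.37, gap 0.942) and Mki67 (-1.27, gap 0.854) were the lowest of their group.

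The effect of phenobarbital differed between strains by limma's interaction test for the following genes. For Uhrf1 it was larger in hCAR/hPXR than in CD-1 mice by 2.04 and in C3H than in CD-1 mice by 2.99. Mki67 differed in the same comparisons by 2.001 and 3.91, and between C3H and hCAR/hPXR mice by 1.91. The first and the last of these were lost with quantile normalization (1.25 and 1.28) and with normexp followed by it (0.45 and 0.84), and the last also without C3H control 3 (1.74) or PB animal 3 (1.46). Dnmt1, lower with phenobarbital in CD-1 mice, differed by 1.60 (hCAR/hPXR minus CD-1) and 1.29 (C3H minus CD-1). Dnmt3b differed by 1.06 (hCAR/hPXR minus CD-1) and -1.34 (C3H minus hCAR/hPXR). The Dnmt3b value of 1.06 became 0.22 with the mean of its probes and was lost. That of -1.34 missed the threshold with quantile normalization (-1.03), with normexp followed by it (-0.73) and with no filter. It also did so without C3H control 2 (-1.31), control 3 (-1.27) or PB animal 1 (-0.78). Dose, duration, slide, signal range of the arrays and strain cannot be told apart in these comparisons.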

How the results depend on the processing

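Of the values of single genes, 264 kept their direction and side of the threshold under the alternatives that kept all animals, 17 lost and 7 gained a call and 8 turned direction. Counts of genes called in CD-1 mice (1900) became 3799 with normexp background correction and quantile normalization, 6172 in 1 fit of 28 arrays and 1164 with the replicate block. In hCAR/hPXR mice 11643 became 440 with the slide block, and in C3H mice 2682 became 612 with no filter on dim probes and 1543 with the replicate block. Counts of methylation genes called became 2 (1 fit) and 0 (replicate block, Dnmt1 adjusted p = 0.0706) from 1 in CD-1 mice, 2 (1 fit) and 1 (slide block) from 4 in hCAR/hPXR mice, and 1 (no filter) from 3 in C3H mice. Of all genes, 1 fit called 6172 of 23789 in CD-1 and 8366 of 20037 in hCAR/hPXR mice. The replicate block called 1164 of 23789 in CD-1 mice. The slide block called 440 of 20037 in hCAR/hPXR and no filter 612 of 37208 in C3H mice. Between strains the counts of methylation genes became 5 from 3 (hCAR/hPXR minus CD-1, no filter), 1 from 2 (C3H minus CD-1, probes above background on every array), and, from 1 for C3H minus hCAR/hPXR, 0 with quantile normalization, 2 with the mean of probes and 0 with no filter. In the same order, the settings called 7341 of 37207, 2131 of 12783, 643 of 17745, 1676 of 17745 and 1337 of 37208 of all genes. The Dnmt1 change minus that of Mki67 in hCAR/hPXR mice was -2.101 on the first slide alone, where the test cannot pass. The direction turned, from values that had not passed apart from Tdg in hCAR/hPXR mice, as follows. With the mean of all probes, dim ones included, Tet3 was -0.015 (CD-1) and -0.193 (hCAR/hPXR), Tdg -0.157 (hCAR/hPXR) and 0.096 (C3H minus hCAR/hPXR), Uhrf1 minus Mki67 -0.667 (CD-1) and -0.839 (hCAR/hPXR), and the correlation of Uhrf1 with Mki67 in hCAR/hPXR controls -0.331. With quantile normalization, and with normexp, Tdg in C3H mice was 0.081 and 0.035, Dnmt3b (C3H minus CD-1) 0.684 and 0.068, and Uhrf1 minus Mki67 in CD-1 mice -0.205 and -0.547; in hCAR/hPXR mice the last was -0.073 with normexp. The correlation of Dnmt1 with Mki67 in hCAR/hPXR controls was 0.315 without the 2 farthest animals. The cause was not tested. Leaving out 1 animal gave 939 (without control 3) to 2164 genes in CD-1, 10772 to 12199 in hCAR/hPXR and 575 (without control 3) to 5386 (without PB animal 1) in C3H mice, and 0 to 1, 4 to 5 and 0 to 3 methylation genes. The ranges were -0.021 to 0.146 for Tet3 (hCAR/hPXR), -0.215 to 0.143 for Tet2 (C3H), -0.094 to 0.062 for Tdg (C3H) and -0.760 to 0.278 for Dnmt3b (C3H minus CD-1). For C3H minus hCAR/hPXR they were 0 to 2 methylation genes, where 861 to 2345 of all genes were called. Animals of the same number did not correlate throughout (pairing r from -0.448 to 0.191 in CD-1, -0.139 to 0.278 in hCAR/hPXR and 0.089 to 0.203 in C3H mice, where every animal matched its own number best), so the numbers were not taken to pair them. A slide block could not be fitted in CD-1 or C3H mice, and the scan was the same as the slide. Uhrf1, Dnmt3a and Tet2 in CD-1 mice were limited by dim signal.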
